A study of Mus musculus with 30 samples.

Results

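The 39 genes described here carry GABA signalling and mark the inhibitory interneurons of the mouse hippocampus. They are listed by name, according to function: 3 genes for making GABA and loading it into vesicles, 9 GABA-A receptor subunits, 2 GABA-B receptor subunits, 2 chloride cotransporters, 6 interneuron transcription factors or RNAs, 9 receptors and other subtype markers, and 8 neuropeptide precursors. All 39 were found among the 49315 genes of the count table, and all 39 were among the 16486 genes with enough counts to be tested. Hippocampi of 30 C57BL/6J mice had been sequenced singly, from 13 TIMP2 KO mice (7 females and 6 males) and 17 WT mice (7 females and 10 males). TIMP2 is a secreted inhibitor of matrix metalloproteinases, the KO line lacks it in the whole body from conception and not in a chosen cell type, and the controls of the study were littermates. No mouse received a treatment according to the labels, and the age of the sequenced mice is not given there. The comparison asks whether RNA of inhibitory signalling differs in hippocampi without TIMP2.

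GABA is made from glutamate by the glutamate decarboxylases, is packed into vesicles, and opens GABA-A receptors, which are chloride channels assembled from several subunits. GABA-B receptors act more slowly through G proteins, and the chloride gradient set by the cotransporters decides how strongly GABA-A receptors inhibit. Hippocampal interneurons form classes that are told apart by calcium-binding proteins, peptides and transcription factors, while many GABA-A subunits and several of the peptides are also made by granule cells and pyramidal cells. In RNA of whole hippocampus, fewer cells of a type and less RNA per cell cannot be told apart.

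Levels within a gene are given as CPM, the reads on the gene scaled to a common library size. Timp2 itself checked the labels. Its level was 130.0 to 170.9 CPM in KO mice, with a median of 160.8, and 256.4 to 380.4 CPM in WT mice, with a median of 333.0. KO mice thus kept Timp2 reads, and counts per gene do not show which exons they came from. The groups did not overlap, with a log2 fold change of -1.0 (SE 0.05, Benjamini-Hochberg adjusted p = 7.62e-16 by edgeR's quasi-likelihood test). Totals ran from 18345517 to 41081083 counts per KO mouse and from 19445246 to 32098386 per WT mouse. Markers of hippocampal excitatory neurons, CA1, CA3 and the dentate gyrus were detected in every mouse. Lists for striatum, thalamus, neocortex, CA1, excitatory neurons, oligodendrocytes and microglia each had 0 genes with an unadjusted p under 0.05 between the genotypes, against 1 of 6 for CA3, 1 of 4 for Cajal-Retzius cells and 1 of 5 for astrocytes, all higher in KO mice. The lists that moved more were those for granule cells, immediate early genes and choroid plexus, and their values stand beside the results they touch.

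The 39 genes spanned a wide range of abundance. Levels are compared between genes as RPKM, which is CPM divided by the summed exon length in kilobases. In WT mice Sst, the precursor of somatostatin, had the highest level at 305.4 ± 34.5 RPKM (SD, n = 17), followed by Cck, the precursor of cholecystokinin, at 251.8 ± 18.3 RPKM. Cck is also transcribed by pyramidal cells, so its level is not that of interneurons alone. Gabbr1, the GABA-B subunit that binds GABA, reached 107.8 ± 2.7 RPKM, and Gabra5, the alpha subunit typical of hippocampal extrasynaptic receptors, 89.0 ± 4.36 RPKM. Npy, the precursor of neuropeptide Y, and Gabra5 lay within their spreads of each other, with Npy at 80.4 ± 6.6 RPKM. At the low end, Sox6, Reln and Crh had 1.49 ± 0.122, 1.49 ± 0.256 and 1.45 ± 0.336 RPKM, and these 3 did not differ beyond their spreads.

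**Figure D1:**
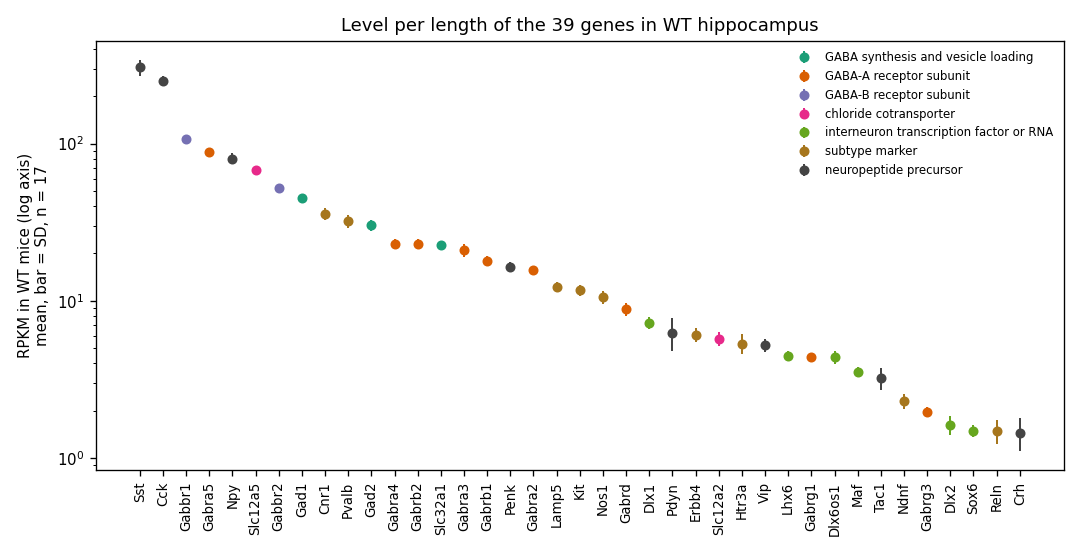
Mean RPKM of each of the 39 genes in the 17 WT mice on a log axis, with bars for the SD and colors for the role of the gene. Sst and Cck stand highest at 305.4 and 251.8 RPKM, the GABA-A subunits run from 89.0 RPKM for Gabra5 to 1.97 RPKM for Gabrg3, and Crh is lowest at 1.45 RPKM.

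The spread between WT mice also differed from gene to gene. Gabbr1 varied by 2.5% (coefficient of variation of CPM, n = 17) and Slc12a5, the neuronal chloride exporter KCC2, by 2.91%. Pdyn, the precursor of dynorphin peptides, varied by 23.6%, and Crh, the precursor of corticotropin-releasing hormone, by 23.1%. Crh had as few as 27 counts in a mouse, against up to 34267 for Gabbr1, so counting error adds to its spread.

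Between the genotypes, 2 of the 39 genes (5.13%) had an unadjusted p under 0.05, the threshold of the study, against 5.03% of all genes tested. Both were GABA-A subunits and both were lower in TIMP2 KO mice, Gabra4 and Gabrd, where 2.56% of all genes were called lower. None of the 39 passed after Benjamini-Hochberg adjustment in edgeR's quasi-likelihood test, against 0.0546% of all genes, and limma, DESeq2 and the other fits tried also gave 0. The median log2 fold change of the 39 was -0.01, beside 0.00 over all genes, and the median absolute log2 fold change was 0.03 for the 39 and for all genes alike. Of the 39, 22 had a negative and 17 a positive log2 fold change, and every one was under 0.1 in size. The 95% interval of the difference lay within 0.1 on the log2 scale for 10 genes and within 0.2 for 36. The values of the KO and WT mice overlapped for all 39.

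**Figure D2:**
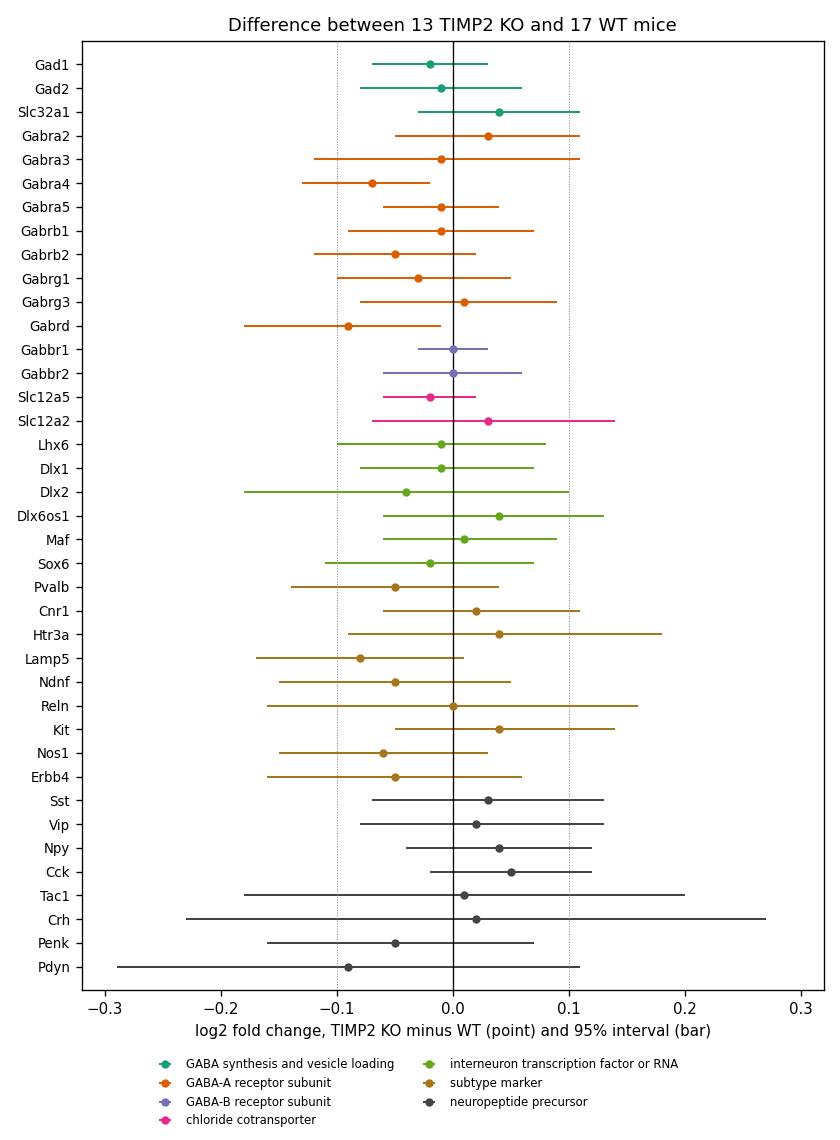
Log2 fold change of TIMP2 KO against WT mice for the 39 genes (points) with 95% intervals from edgeR's fit (bars), colored by role, with dotted lines at 0.1 on either side of 0. The intervals of Gabra4 and Gabrd end below 0, those of the other 37 genes cross it, and Crh and Pdyn have the widest.

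Genes for making and packing GABA were close to equal in both genotypes. Gad1, which encodes the decarboxylase GAD67, found throughout the cell, ran from 304.8 to 356.1 CPM in KO mice (median 340.8) and from 317.5 to 378.3 CPM in WT mice (median 343.2). Its log2 fold change of -0.02 had a 95% interval of -0.07 to 0.03 (p = 0.485, adjusted p = 0.998 by edgeR). Gad2, which encodes GAD65, the decarboxylase concentrated in nerve terminals, had medians of 178.3 CPM in KO and 179.0 CPM in WT mice and an interval of -0.08 to 0.06. Slc32a1, the vesicular GABA transporter, had medians of 64.7 and 64.5 CPM and a log2 fold change of 0.04 (interval -0.03 to 0.11). 
GABA-A subunits held both genes that passed the unadjusted test. Gabra4, the alpha subunit that joins delta in extrasynaptic receptors of granule cells, lies at chr5:71569749-71658308 of GRCm38 on the minus strand. It ran from 127.9 to 139 CPM in KO mice, with a median of 133.6, and from 126.2 to 160.0 CPM in WT mice, with a median of 140.7. All 13 KO mice were below the WT median, but they stayed within the WT range. Gabra4 fell by 4.92% (log2 fold change -0.07, SE 0.03, interval -0.13 to -0.02, p = 0.0123, adjusted p = 0.912 by edgeR), and a 2-sided permutation test of its log2 CPM gave p = 0.0145. The KO mice were also the more alike, with a coefficient of variation of 2.91% against 6.54% in WT mice. Leaving out any 1 mouse kept its unadjusted p between 0.0042 and 0.0245. It passed no longer with sex and 8 surrogate variables as covariates (log2 fold change -0.01, p = 0.805 by edgeR). Surrogate variables stand for variation between libraries that the labels do not name. The study's methods name the date of isolation or harvest as a source of such variation, but the labels give no dates, so the part of date in the values of these genes was not tested.

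Gabrd, the delta subunit that makes GABA-A receptors respond to ambient GABA, lies at chr4:155384980-155398112. Its values were 20.8 to 27.8 CPM in KO mice (median 23.6) and 22.2 to 31.4 CPM in WT mice (median 24.7), with 10 of 13 KO mice below the WT median. Gabrd fell by 6.35% (log2 fold change -0.09, SE 0.04, interval -0.18 to -0.01, p = 0.0383, adjusted p = 0.980 by edgeR; permutation p = 0.0447). This call was lost without any one of 8 mice, numbers 5, 8, 10, 15, 16, 19, 21 and 27, with unadjusted p up to 0.0789, and with surrogate variables (log2 fold change -0.06, p = 0.172 by edgeR).

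By sex, both subunits passed an exact test between the genotypes in females and not in males. Both had been picked because they passed over all mice, so tests on the same mice are not independent of that result. Among females Gabra4 was 127.9 to 138.1 CPM in KO and 131.7 to 160.0 CPM in WT mice (difference in mean log2 CPM -0.11, exact permutation p = 0.0122), and among males 128.4 to 139 and 126.2 to 149.1 CPM (-0.05, exact permutation p = 0.221). Gabrd in females was 22.1 to 27.8 CPM in KO and 24.7 to 31.4 CPM in WT mice (-0.17, exact permutation p = 0.0181), and in males 20.8 to 25.9 and 22.2 to 26.1 CPM (-0.05, exact permutation p = 0.355). A difference between the sexes was not shown, since the interaction of sex and genotype gave p = 0.254 for Gabra4 and p = 0.103 for Gabrd by edgeR's quasi-likelihood test.

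**Figure D3:**
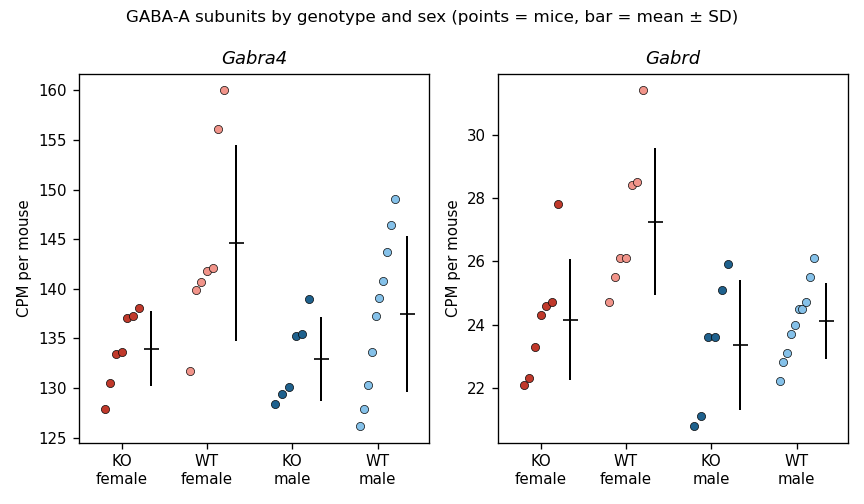
CPM of Gabra4 and Gabrd in each mouse (points) with the mean and SD of each group (bars), for 7 KO females, 7 WT females, 6 KO males and 10 WT males. KO females lie between 127.9 and 138.1 CPM for Gabra4 while WT females reach 160.0 CPM, and the male groups overlap more for both genes.

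Both subunits are abundant in dentate granule cells, and granule cell markers moved in the same direction. Of the 10 granule cell markers, 5 had an unadjusted p under 0.05 and all 5 were lower in KO mice, among them Prox1, the transcription factor of granule cell identity. The median log2 fold change of the 10 was -0.12, and 0 passed adjustment. Their summed level was 544.3 to 728.6 CPM in KO mice (median 681.0) and 617.3 to 927.5 CPM in WT mice (median 705.6), and none of the 10 was at 0 in any mouse. Across the 30 mice, Gabra4 followed the mean log2 CPM of these markers with r = 0.71 and rho = 0.501 (permutation p = 2e-05 and 0.00512), and Gabrd with r = 0.708 and rho = 0.493 (permutation p = 1e-05, the smallest that 100000 resamples can give, and 0.00616). Without the 2 mice farthest from the median of the subunit, r was 0.474 for Gabra4 and 0.663 for Gabrd. Within KO mice r was 0.391 for Gabra4 and 0.445 for Gabrd, and within WT mice 0.737 and 0.776. Once the means of sex and genotype were removed, r was 0.576 and 0.529. These were 2 of 10 relations of members with marker lists, chosen after the values were seen, and the adjusted p for r was 6.67e-05 for Gabra4 and 5e-05 for Gabrd. The part of the granule cell markers in the lower Gabra4 and Gabrd was not tested.

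**Figure D4:**
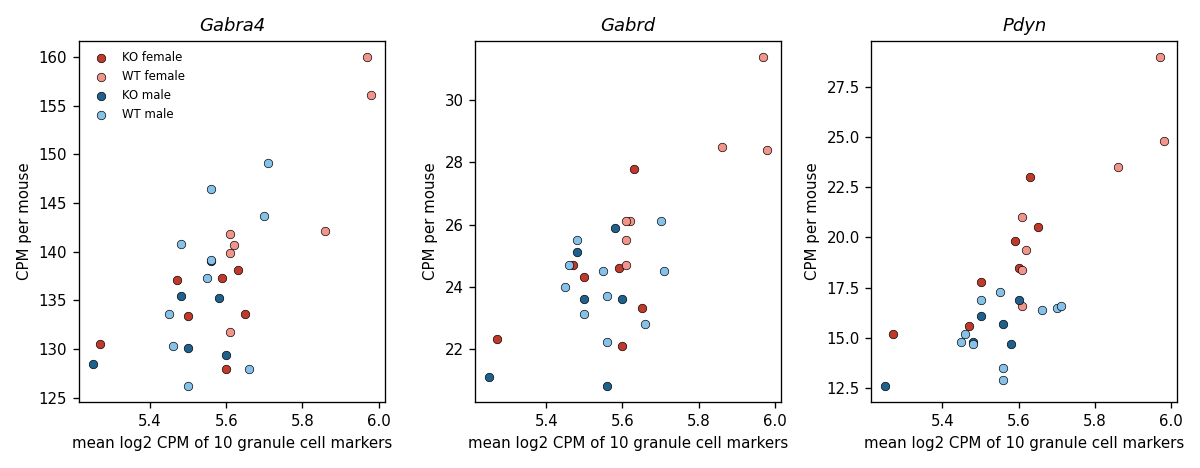
CPM of Gabra4, Gabrd and Pdyn in each of the 30 mice against the mean log2 CPM of the 10 granule cell markers, with points colored by genotype and sex. All 3 genes are higher in mice with more granule cell marker RNA, and WT females hold the 3 highest values on the horizontal axis.

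Among the other GABA-A subunits, Gabrb2, a beta subunit of the most common synaptic receptors, came next with medians of 142.3 CPM in KO and 147.5 CPM in WT mice (log2 fold change -0.05, interval -0.12 to 0.02, p = 0.167 by edgeR). It is the 1 member on chromosome 11, where Timp2 lies, at a distance of 75.7 Mb. The alpha subunits Gabra2, Gabra3 and Gabra5 had log2 fold changes of 0.03, -0.01 and -0.01, the beta subunit Gabrb1 -0.01, and the gamma subunits Gabrg1 and Gabrg3 -0.03 and 0.01. Gabra3 and Gabrb1 had unadjusted p of 0.903 and 0.851. The 5′ ends of Gabra4 and Gabrb1 lie head to head on chromosome 5 and share 46 exon bases on opposite strands, so a small share of their reads could not be told apart if strand was not used.

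GABA-B subunits had 0 calls among 2, and Gabbr1 had the narrowest interval of the 39 genes. It ran at 802.2 to 879.0 CPM in KO mice (median 832.3) and 799.4 to 867.8 CPM in WT mice (median 836.7), a change of -0.0285% with an interval of -2.19% to 2.18%. Gabbr2, the partner that couples the receptor to G proteins, had medians of 346.3 and 348.4 CPM and an interval of -4.01% to 4.46%.

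The chloride cotransporters did not pass either. Slc12a5 ran from 465.4 to 537.9 CPM in KO mice (median 496.8) and from 476.9 to 525.4 CPM in WT mice (median 510.6), with a log2 fold change of -0.02 (interval -0.06 to 0.02, p = 0.374 by edgeR). Slc12a2, the chloride importer NKCC1, ran from 54.0 to 76.1 CPM and from 50.6 to 72.1 CPM, with a log2 fold change of 0.03 (interval -0.07 to 0.14, p = 0.506). Slc12a2 is also made by glia and the choroid plexus. All 5 choroid plexus markers tested were higher in KO mice, 4 of them with an unadjusted p under 0.05 by edgeR. The 10 listed markers summed to 127.0 to 504.4 CPM in KO mice (median 158.3) and 123.3 to 164.5 CPM in WT mice (median 150.9). The part of choroid plexus RNA in the Slc12a2 value was not tested. The ratio of Slc12a5 to Slc12a2 in CPM had a median of 7.9 in both genotypes and ran from 6.22 to 9.06 in KO and from 6.96 to 9.54 in WT mice.

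Transcription factors that set up interneuron identity, and the RNA Dlx6os1, which lies beside the Dlx5 and Dlx6 genes, had 0 calls among 6. The symbol Dlx6os1 stands for 2 identifiers, and the longer gene, ENSMUSG00000090063, was used. Dlx6os1 had 20.4 to 27.4 CPM in KO mice (median 23.3) and 19.2 to 26.5 CPM in WT mice (median 22.0), with 10 of 13 KO mice above the WT median and a log2 fold change of 0.04 (interval -0.06 to 0.13, p = 0.404 by edgeR). Dlx2, a homeobox factor of interneuron birth, had medians of 4.41 and 4.62 CPM (interval -0.18 to 0.10, p = 0.585), and Sox6, a factor of interneurons from the medial ganglionic eminence, 22.4 and 22.2 CPM (interval -0.11 to 0.07, p = 0.635). Lhx6, which specifies the somatostatin and parvalbumin classes, Dlx1 and Maf had log2 fold changes of -0.01, -0.01 and 0.01. Dlx1 shares 335 exon bases with the antisense gene Dlx1as, which had 87 to 203 counts per mouse.

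Subtype markers had 0 calls among 9. Lamp5, which marks neurogliaform interneurons and is also found in other neurons, came closest. Lamp5 was 29.1 to 42.5 CPM in KO mice (median 33.4) and 33.2 to 41.3 CPM in WT mice (median 35.9), and 11 of 13 KO mice were below the WT median. Its log2 fold change was -0.08 (SE 0.04, interval -0.17 to 0.01, p = 0.0767, adjusted p = 0.998 by edgeR). The highest KO value sat above the whole WT range, and without mouse 18 the unadjusted p was 0.00795, and without mouse 20 it was 0.0236. It also passed with surrogate variables (log2 fold change -0.11, p = 0.0141), with total counts as a covariate (-0.09, p = 0.0388) and with limma voom (-0.10, p = 0.0177).

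Nos1, the neuronal nitric oxide synthase, had medians of 111.3 CPM in KO and 116.0 CPM in WT mice (log2 fold change -0.06, interval -0.15 to 0.03, p = 0.187 by edgeR). Pvalb, the calcium-binding protein of fast-spiking basket cells, had 27.9 to 37.4 CPM in KO mice (median 32.3) and 28.8 to 41.4 CPM in WT mice (median 33.7), with a log2 fold change of -0.05 (interval -0.14 to 0.04, p = 0.28). With sex and surrogate variables as covariates, the value for Pvalb was -0.11 (p = 0.00503, adjusted p = 0.664 by edgeR). The other 6 markers had larger unadjusted p. Ndnf, a secreted marker of neurogliaform cells, and Erbb4, the neuregulin receptor of interneurons, both had -0.05. Kit, a receptor tyrosine kinase, and Htr3a, the ionotropic serotonin receptor of interneurons from the caudal ganglionic eminence, both had 0.04. Cnr1, the cannabinoid receptor of cholecystokinin basket cells, had 0.02, and Reln, the secreted protein reelin, had an interval of -0.16 to 0.16.

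Neuropeptide precursors also had 0 calls, among 8. Cck was 313.2 to 376.4 CPM in KO mice (median 332.6) and 287.7 to 381.8 CPM in WT mice (median 330.7), with a log2 fold change of 0.05 (interval -0.02 to 0.12, p = 0.129 by edgeR), and it passed only when mouse 6 was left out (0.07, p = 0.0333). Npy had medians of 46.4 and 46.5 CPM (log2 fold change 0.04, interval -0.04 to 0.12, p = 0.271). Pdyn had 12.6 to 23.0 CPM in KO mice (median 16.1) and 12.9 to 29.0 CPM in WT mice (median 16.6), and its log2 fold change of -0.09 had an interval of -0.29 to 0.11 (p = 0.356). The groups overlapped for these 3 genes, and 9 of 13 KO mice were above the WT median for Cck.

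Sst had medians of 223.8 CPM in KO and 223.3 CPM in WT mice (interval -0.07 to 0.13), and Vip, the precursor of the vasoactive intestinal peptide, 18.8 and 17.8 CPM (interval -0.08 to 0.13). Penk, the precursor of enkephalins, had -0.05 (interval -0.16 to 0.07). Tac1, the precursor of substance P, and Crh had intervals of -0.18 to 0.20 and -0.23 to 0.27, the latter allowing changes from -14.9% to 20.3%.

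Genes outside the 39 were read from 2 further lists. In the same fit, 5.03% of all genes tested had an unadjusted p under 0.05, and 2.56% were called lower in KO mice. Of 29 other genes of GABA receptors, uptake, breakdown and the inhibitory synapse, 24 were tested and 2 (8.33%) were called. Both were lower in KO mice, and the median log2 fold change over the 24 was -0.02. Of 26 other interneuron genes, all tested, 1 (3.85%) was called: Adarb2, an RNA-binding protein of interneurons from the caudal ganglionic eminence, with 23.5 to 31.0 CPM in KO mice (median 27.3) and 26.1 to 35.5 CPM in WT mice (median 29.4; log2 fold change -0.12, SE 0.04, p = 0.0089, adjusted p = 0.882 by edgeR). This call was lost with sex and surrogate variables as covariates (log2 fold change -0.04, p = 0.358 by edgeR), where Syt2, a synaptotagmin of fast-spiking interneurons, was the 1 call of the list (-0.18, p = 0.00139), and in males alone (-0.07, p = 0.24). No gene of either list passed adjustment.

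More of the genes passed between the sexes than between the genotypes. In the fit with both factors, 9 of the 39 genes (23.1%) had an unadjusted p under 0.05 between males and females, against 9.77% of all genes tested. Females were higher for 4, Pdyn, Gabrd, Npy and Gabra2, where 5.14% of all genes were lower in males. Males were higher for 5, Cnr1, Penk, Gabra5, Gad2 and Cck, against 4.63% of all genes. Pdyn alone passed Benjamini-Hochberg adjustment in edgeR's quasi-likelihood test, which 0.218% of all genes did. By role, the 9 were 4 of 8 peptide precursors, 3 of 9 GABA-A subunits, 1 of 9 subtype markers and 1 of 3 genes for making GABA.

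Pdyn was 15.2 to 29.0 CPM in females (median 19.6) and 12.6 to 17.3 CPM in males (median 15.5). In 13 of 14 females it was above the male median, and in 11 of 14 above the highest male. The male minus female log2 fold change was -0.42 (SE 0.07, adjusted p = 0.000505 by edgeR's quasi-likelihood test), which puts females 1.34-fold higher. The difference held within each genotype. WT females had 16.6 to 29.0 CPM and WT males 12.9 to 17.3 CPM (mean log2 CPM higher by 0.48 in females, exact permutation p = 0.000309). KO females had 15.2 to 23.0 CPM and KO males 12.6 to 16.9 CPM (0.29, exact permutation p = 0.0175). The interaction of sex and genotype gave p = 0.156 by edgeR. Leaving out each mouse in turn kept the adjusted p between 0.000127 and 0.00183.

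Dynorphin is made by granule cells of the dentate gyrus, where it fills the mossy fibers, and granule cell markers differed by sex too. Of the 10 markers, 5 were lower in males at the unadjusted threshold and 2 after adjustment, with summed levels of 562.9 to 927.5 CPM in females and 544.3 to 770.7 CPM in males. Across the 30 mice Pdyn followed the mean log2 CPM of the list with r = 0.779 and rho = 0.704 (permutation p = 1e-05 and 4e-05, adjusted over 10 relations 5e-05 and 0.0004), and r was 0.635 without mice 16 and 21. Within KO mice r was 0.737 and within WT mice 0.829. After the means of sex and genotype were removed r was 0.774. All 12 immediate early genes, which rise with neuronal activity, were lower in males, 9 of them with an unadjusted p under 0.05 by edgeR. Pdyn had r = -0.0627 and rho = 0.0105 with their mean log2 CPM (permutation p = 0.742 and 0.957). The part of these lists in the sex difference of Pdyn was not tested.

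Penk went the other way, with 20.9 to 29.9 CPM in females (median 24.8) and 24.6 to 39 CPM in males (median 27.2). The male minus female log2 fold change was 0.14 (SE 0.05, p = 0.0112, adjusted p = 0.366 by edgeR), and 11 of 14 females were below the male median. Without mouse 18, a KO male at 39 CPM, it was 0.09 (SE 0.04, p = 0.0251 by edgeR). In KO mice the mean log2 CPM of females minus males was -0.23 (exact permutation p = 0.0221), and -0.14 without mouse 18 (exact permutation p = 0.048). In WT mice it was -0.06 (exact permutation p = 0.25). The interaction of sex and genotype gave p = 0.0736 for Penk by edgeR, so a difference between the genotypes was not shown.

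**Figure D5:**
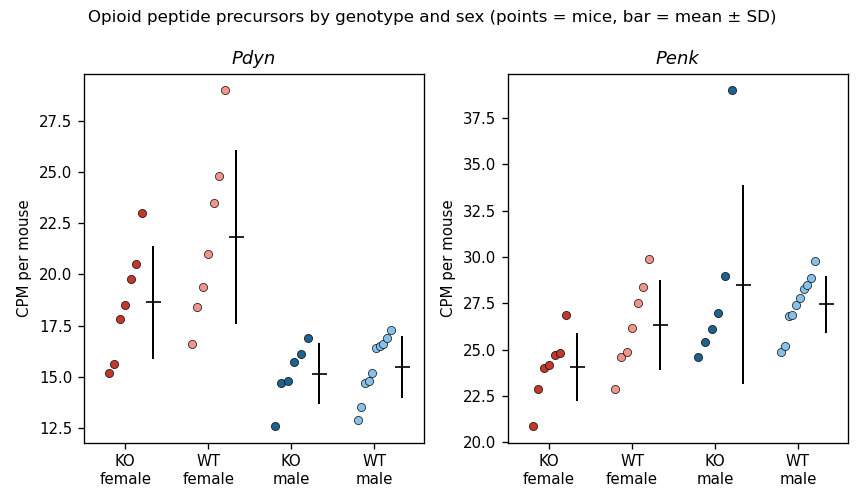
CPM of the opioid peptide precursors Pdyn and Penk in each mouse (points) with the mean and SD of each group (bars), for 7 KO females, 7 WT females, 6 KO males and 10 WT males. Pdyn is higher in females of both genotypes, with males at or under 17.3 CPM, and Penk has 1 KO male at 39 CPM.

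Gabrd had the smallest p of the subunits between the sexes, at 22.1 to 31.4 CPM in females and 20.8 to 26.1 CPM in males (log2 fold change -0.12, SE 0.04, p = 0.00347, adjusted p = 0.231 by edgeR). Females exceeded males in WT mice by 0.17 in mean log2 CPM (exact permutation p = 0.00175) and in KO mice by 0.05 (exact permutation p = 0.498). The interaction for Gabrd did not pass (p = 0.103 by edgeR). Cnr1 was 199.1 to 242.6 CPM in females and 206.9 to 285.1 CPM in males (0.11, p = 0.00654, adjusted p = 0.304). The remaining 5 were small. Npy and Gabra2 were lower in males by log2 fold changes of -0.09 and -0.08, and Gabra5, Gad2 and Cck were higher in males by 0.06, 0.07 and 0.06, with unadjusted p from 0.0198 to 0.0488 by edgeR.

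Whether the genotype difference itself depended on sex was tested by the interaction term. Of the 39 genes, 1 (2.56%) had an unadjusted p under 0.05, against 2.57% of all genes. It was Gabrg1, a gamma subunit found in glia as well as neurons. Gabrg1 was 34.3 to 37.1 CPM in KO females and 31.9 to 38.6 CPM in WT females (medians 35.3 and 33.2). In males it was 28.9 to 36.5 CPM in KO and 32.3 to 38.9 CPM in WT mice (medians 31.2 and 34.3). The KO minus WT log2 fold change was 0.06 in females (p = 0.221) and -0.13 in males (p = 0.012), with an interaction of -0.19 (SE 0.07, p = 0.00965) by edgeR's quasi-likelihood test. No interaction passed adjustment in edgeR's test, among the 39 or among all genes.

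Since peptide precursors held 4 of the 9 sex calls, the sequences before their transcription start are shown for the 3 of them in the RefSeq promoter table whose 250 bases touch no annotated exon. The bases are from GRCm38.p6 and run 5′ to 3′ on the strand of the gene, ending just before the RefSeq start nearest to the annotated 5′ end. Capitals mark a GC box, and none of the 3 holds another motif searched.
Pdyn, chr2:129699939-129700188, minus strand: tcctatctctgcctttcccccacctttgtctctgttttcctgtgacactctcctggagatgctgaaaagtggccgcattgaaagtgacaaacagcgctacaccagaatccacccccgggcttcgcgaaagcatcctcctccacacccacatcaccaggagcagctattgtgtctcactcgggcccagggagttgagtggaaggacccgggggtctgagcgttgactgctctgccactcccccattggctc
Npy, chr6:49822460-49822709, plus strand: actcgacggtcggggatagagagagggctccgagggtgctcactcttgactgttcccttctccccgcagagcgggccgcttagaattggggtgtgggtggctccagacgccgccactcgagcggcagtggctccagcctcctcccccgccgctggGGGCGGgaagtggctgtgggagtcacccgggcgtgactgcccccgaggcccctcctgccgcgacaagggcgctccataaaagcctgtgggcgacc
Cck, chr9:121495695-121495944, minus strand: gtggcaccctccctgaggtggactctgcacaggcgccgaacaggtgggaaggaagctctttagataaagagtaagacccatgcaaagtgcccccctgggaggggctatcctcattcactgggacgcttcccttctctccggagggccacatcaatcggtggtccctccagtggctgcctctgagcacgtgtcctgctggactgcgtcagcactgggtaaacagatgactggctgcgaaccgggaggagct
Among the same 250 bases of 32851 promoters, searched on both strands, the GC box GGGCGG was in 32.7%, the TATA box TATAAA in 12.4%, the oestrogen response element (GGTCA, 3 bases, TGACC) in 0.0639% and the androgen response element (AGAACA, 3 bases, TGTTCT) in 0.00913%. Taking 1 start for each of the 32 members in the table, 13 held a GC box, 4 a TATA box and 0 either hormone element, which says only that those letters are not in these windows.

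Sst, the member with the highest level, was the 1 of these 32 that held the cAMP response element TGACGTCA, which is in 1.55% of all promoters. It begins 48 bases before the RefSeq start, and it is shown with 11 bases on each side, in capitals. Unlike the windows above, the 250 bases of Sst touch an annotated exon, that of Sst itself. The stretch shown lies within the annotated gene, at chr16:23889573-23890958.
Sst, chr16:23890874-23890903, minus strand: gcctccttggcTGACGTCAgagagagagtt
Maf, Crh, Ndnf, Htr3a, Slc12a2, Penk and Gabrd were not matched in the table.

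Pairs of members that share a cell type or pathway were compared over the 30 mice as log2 CPM, and 5 of 12 pairs passed after Benjamini-Hochberg adjustment over the 12. Gad1 and Gad2 had the highest r of the 12, with r = 0.756 and rho = 0.771 (permutation p = 1e-05 for both, adjusted p = 0.00012), and r = 0.823 without mice 6 and 27. Within KO mice r was 0.628 and within WT mice 0.811. The ratio of Gad1 to Gad2 in CPM had a median of 1.92 in both genotypes, and ran from 1.79 to 2.06 in KO and from 1.74 to 2.12 in WT mice. Gad1 and Slc32a1 had r = 0.438 and rho = 0.6 (permutation p = 0.0158 and 0.00049, adjusted p = 0.038 and 0.00196), and r = 0.681 without mice 6 and 27.

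Gabra4 and Gabrd, the subunits of 1 extrasynaptic receptor, had r = 0.677 and rho = 0.635 (permutation p = 5e-05 and 0.0003, adjusted p = 0.0003 and 0.0018). Without mice 16 and 21, both WT females, r was 0.465. Within genotypes it was 0.469 in KO and 0.703 in WT mice.

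Sst and Lhx6 had r = 0.5 and rho = 0.524 (permutation p = 0.00506 and 0.00348, adjusted p = 0.0152 and 0.0096), 0.413 without mice 16 and 31, with 0.548 in KO and 0.501 in WT mice. Reln and Ndnf, both made by neurogliaform cells, had r = 0.574 and rho = 0.516 (permutation p = 0.00098 and 0.004, adjusted p = 0.00392 and 0.0096) and 0.596 without mice 14 and 23. The latter pair had r = 0.271 in KO and 0.75 in WT mice, a difference that was not tested.

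The other 7 pairs did not pass. Pvalb and Lhx6 had r = -0.065 and rho = -0.128 (permutation p = 0.732), and Slc12a5 and Slc12a2 had 0.12 and 0.13 (p = 0.525). Penk and Pdyn had r = 0.0724 and rho = 0.0496 (permutation p = 0.701), but 0.543 once the means of sex and genotype were removed (permutation p = 0.00164, adjusted p = 0.00656), and the 2 genes differed by sex in opposite directions. The remaining 4, Sst with Npy, Cck with Cnr1, Dlx1 with Dlx6os1 and Npy with Crh, had r from 0.196 to 0.374 and rho from 0.222 to 0.292, with adjusted permutation p from 0.0842 to 0.401.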

How the data were processed

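Poly(A)-selected libraries of single hippocampi were sequenced with paired-end reads. The authors trimmed reads, aligned them to GRCm38 with STAR 2.5.2b and counted them per gene, and their processing notes name Trimmomatic 0.36 and featureCounts of Subread 1.5.2. They deposited raw counts in a table of 49315 Ensembl genes without normalization. The strand setting is not given in the sources used here. Names and positions came from GENCODE M21, which lacks 259 of the genes, and all 30 columns were matched to mice.

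The counts were fitted in R 4.3.3 by the quasi-likelihood method of edgeR 4.0.16, with TMM factors (0.976 to 1.02) and filterByExpr, for the 16486 genes that passed, and p-values were adjusted over all of these (Benjamini-Hochberg). The common biological coefficient of variation was 7.52%. The fit pooled the sexes without covariates. The study's methods name DESeq2 and its Wald test and state no covariates. Log2 CPM used a prior count of 2. Correlations and single values were tested by 2-sided permutation, with 100000 resamples or exactly, in scipy 1.17.1. The alternatives used DESeq2 1.42.0, limma 3.58.1, sva 3.50.0 with 8 surrogate variables, other filters and covariates, each sex alone and each mouse left out. The edgeR test across all genes was checked beforehand on counts simulated from these mice.

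The members, lists and pairs were chosen with earlier results of these data known. All members are named, those with an unadjusted p under 0.05 and the 3 smallest p of each role are described in full, and of the other interneuron genes those under 0.05 are named, while those of the other GABA pathway list are not reported here by name. Marker lists are given as counts and summed levels. Mice are separate samples by their labels. The study's methods treat the date of isolation or harvest as a batch in its network analysis, and the dates are not given in the sources used here, so date could not be fitted. Protein sequences were not used here.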

Additional observations from a re-analysis of the deposited data

Results flagged for a closer look

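Within the 4 groups of genotype and sex, 156 sets of log2 CPM values of the 39 genes were examined for 1 mouse that stood apart by Dixon's criterion at the 95% level. Such a mouse was found in 14, and chance alone would give about 7.8. Mouse 18, a KO male, was the one in 3 of them. It had the lowest Gabra3, at 5.76 against 6.30 to 6.58 in the other KO males, the highest Slc12a5, at 9.07 against 8.91 to 8.96, and the highest Penk, at 5.29 against 4.62 to 4.86. Without mouse 18, Penk and Kit also had an unadjusted p under 0.05 between the genotypes by edgeR, as did Lamp5.

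Reln had a mouse that stood apart in 3 of the 4 groups, always the highest. The values were 5.56 in KO female mouse 30 against 4.91 to 5.14, 5.59 in KO male mouse 14 against 5.06 to 5.26, and 5.66 in WT female mouse 23 against 4.81 to 5.10. Mouse 30 was also highest for Erbb4, at 6.52 against 6.04 to 6.23, and mouse 23 for Dlx6os1, at 4.73 against 4.27 to 4.46. Mouse 6, a WT male, was lowest for Gabbr2, at 8.14 against 8.41 to 8.53, and highest for Dlx2, at 2.65 against 1.98 to 2.32.

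Mouse 11 was the highest of the KO females for Slc12a2, at 6.23 against 5.87 to 6.02. The same mouse had the highest choroid plexus marker sum of all mice, 504.4 CPM. Over all mice, Slc12a2 was highest in mouse 18, at 76.1 CPM against 74.8 CPM in mouse 11. The choroid plexus sum of mouse 18 was 182.8 CPM. The others were mouse 10 for Dlx1 (KO male, 5.49 against 5.21 to 5.26), mouse 32 for Cnr1 (WT male, 8.13 against 7.76 to 7.95) and mouse 25 for Cck (KO female, 8.50 against 8.35 to 8.41).

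Gabrg1 was flagged for its interaction of sex and genotype, -0.19 on the log2 scale (unadjusted p = 0.00965 by edgeR). It was the 1 call among the 39 genes (2.56%), where 2.57% of all genes were called. It did not pass adjustment over all genes.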

How the results depend on the processing

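Of the 39 genes, 2 passed the unadjusted threshold between the genotypes, and under the alternatives the count was 1 for males alone (Gabrg1) and 6 for females alone (Kit, Gabrd, Gabra4, Lamp5, Penk and Pdyn), and 1 to 5 when each mouse was left out, with 5 without mouse 18. With sex and surrogate variables the count was again 2, but the genes were Pvalb and Lamp5. With total counts as a covariate Lamp5 was called beside Gabra4 and Gabrd, and limma voom called Lamp5, Gabra4 and Penk. The share of all genes called between the genotypes is given here for the main fit only (5.03%). The counts from the other fits were therefore not set against a share. Gabra4 was lost in 2 of 10 alternatives, with surrogate variables and in males alone (-0.05, p = 0.196 by edgeR), and Gabrd in 3, with surrogate variables, in males alone (-0.04, p = 0.378) and by limma voom (-0.08, p = 0.0712). After adjustment 0 of the 39 passed under every alternative run, and the median log2 fold change of the 39 stayed between -0.02 and 0.00. Other GABA pathway genes gave 2 calls, 1 without a filter, 1 in males alone and 1 to 3 with a mouse left out. Other interneuron genes gave 1 call, 3 in females alone, 0 in males alone, 2 by limma voom and 1 to 3 with a mouse left out. The interaction count of 1 ran from 1 to 4 with a mouse left out, with Gabrg1 among the calls each time, and the sex count of 9 from 7 to 10. Of the pairs, 6 in place of 5 passed on residuals and 6 without TMM factors. The fits of 1 sex or with a mouse left out held fewer mice, and the cause of the other shifts was not tested. No direction was reversed among called values. The controls were littermates, but the labels name no litter, so no paired analysis was possible and the part of litter was not tested. At the depth and spread of these mice, the intervals of 36 of the 39 genes reach no farther than 0.2 on the log2 scale.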

Other observations

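Other members were also set beside marker lists after the values were seen, within the same 10 relations. Penk had r = 0.402 and rho = 0.383 with the granule cell markers (permutation p = 0.032 and 0.0373, adjusted p = 0.0675 and 0.0747), and 0.638 after the means of sex and genotype were removed (permutation p = 0.0001, adjusted p = 0.0005). Reln and Ndnf had r = 0.381 and 0.377 with the Cajal-Retzius markers (adjusted permutation p = 0.0675 for both), and 0.374 and 0.465 after the means of sex and genotype were removed (adjusted permutation p = 0.0697 and 0.0191). All 12 immediate early genes were higher in KO mice, 10 of them with an unadjusted p under 0.05 by edgeR. Their summed level was 310.1 to 863.8 CPM in KO and 270.3 to 766.2 CPM in WT mice. With these genes, Gabra4, Gabrd and Penk had r = -0.307, -0.0961 and -0.165, and none passed (adjusted permutation p = 0.14, 0.683 and 0.491).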
